A study of Homo sapiens with 6 samples.

Results

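Replication-dependent histone genes are described here in 3 human cell lines with a malin vector or an empty vector. Members were all genes whose symbols begin with HIST1H, HIST2H, HIST3H or HIST4H, which gave 66 of the 19903 genes listed. They comprised 6 genes for the linker histone H1, and 15, 17, 14 and 14 genes for the core histones H2A, H2B, H3 and H4. By position, 51 lay in the large HIST1 cluster on chromosome 6, 11 in HIST2 and 3 in HIST3 on chromosome 1, and 1, HIST4H4, on chromosome 12. No member was at 0 in all 6 libraries, but 25 of the 66 passed the filter for testing, a protein-coding gene with a mean of at least 1 FPKM (fragments scaled to transcript length and library total). One further gene, HIST2H2BC, reached that mean but is annotated as a transcribed pseudogene.

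Replication-dependent histone genes supply the histones that package newly made DNA, and their messages accumulate in S phase. Most of the genes lack introns and occur in clusters, and most of their transcripts end after a conserved stem-loop instead of in a poly(A) tail. The stem-loop is bound by SLBP, and NPAT and CASP8AP2 (FLASH) act in the nuclear bodies where these genes are transcribed and processed. Some members, including HIST1H2BK, HIST1H2BD, HIST1H2AC and HIST1H1C, are known to yield polyadenylated messages as well. The sources used here do not say if RNA was poly(A)-selected, so levels of members with different 3' ends cannot be compared as amounts of total histone message.

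Messenger RNA was sequenced in cells labelled A549, H1299 and H2030, all described as lung cancer lines at passage 5, with a vector that overexpresses NHLRC1 or with the empty vector. NHLRC1 encodes malin, an E3 ubiquitin ligase. Each line gave 1 malin and 1 empty-vector library, which makes 3 libraries per group and leaves every line and vector unreplicated. The sources used here name neither the vector's promoter nor whether a line was 1 clone or a pool.

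Depth estimated from the spacing of low values was 8350000 to 10650000 fragments per library. NHLRC1 stood at 6.82 FPKM with malin against 1.21 FPKM with the empty vector in A549, at 119 against 2.85 FPKM in H1299, and at 3.69 against 0.18 FPKM in the libraries labelled H2030 (mean log2 difference 2.93 ± 0.60 SE, higher in 3 of 3 lines, limma adjusted p 0.927). The malin library labelled H2030 has a column header that abbreviates HEK293T, an embryonic kidney cell line, instead of H2030. Both libraries of that pair stood apart from A549 and H1299. TM4SF1, a surface gene of many carcinomas, had 0.19 FPKM (malin) and 0.23 FPKM (empty vector) in them, against 136 to 297 FPKM in the other 4 libraries. NEFM, a neurofilament gene, was at 52.6 and 30.5 FPKM in the same pair, against 0.12 to 2.11 FPKM elsewhere. The lung epithelial markers NKX2-1, NAPSA, SFTPB and SFTPC stayed under 4 FPKM in all 6 libraries. Of these, NKX2-1 was highest in that pair, at 3.78 and 1.85 FPKM (malin, empty vector), against 0 to 0.77 FPKM elsewhere. The epithelial gene EPCAM was also highest there, at 5.41 and 8.55 FPKM against 0.17 to 1.75 FPKM. The keratins KRT7, KRT8 and KRT18 were lowest there, with KRT8 at 77.6 and 88.2 FPKM against 225 to 1234 FPKM. The 2 libraries are named below by their label only, and the class means over lines and the comparison of H1299 with A549 are also given without them.

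The stem-loop that most of these genes share was read from GENCODE release 29 transcripts on GRCh38. The letters searched, on the transcript strand, were GGCNC followed directly by TTTTNAG and then NGCC, with N for any base. They occurred in the matched transcript of 32 of 66 members (48.5%), and in 38 of 83129 protein-coding transcripts (0.0457%). Of the 34 members without a match, 30 have a transcript model that holds the coding sequence and stop codon only, HIST1H2BK, HIST1H1C and HIST1H2BJ among them, so their 3' ends were not searched. The 6 stem-loops below are those of members that the comparisons turn on, with the 16 bases of the loop in capitals, written 5′ to 3′ on the gene's strand.
HIST1H2AC (chr6:26124664-26124689, plus strand): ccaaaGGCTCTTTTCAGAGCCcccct
HIST1H2BD (chr6:26158582-26158607, plus strand): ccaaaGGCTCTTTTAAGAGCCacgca
HIST3H2A (chr1:228457364-228457389, minus strand): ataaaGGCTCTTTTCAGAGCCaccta
HIST1H3H (chr6:27810511-27810536, plus strand): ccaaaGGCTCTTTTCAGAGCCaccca
HIST1H4H (chr6:26285126-26285151, minus strand): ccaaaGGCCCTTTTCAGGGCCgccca
HIST2H4A (chr1:149833027-149833052, plus strand): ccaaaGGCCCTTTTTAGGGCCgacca

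The stem differed by class. All 8 H4 members with a match had the stem that begins with GGCCC, and all 24 matched H2A, H2B and H3 members had the one that begins with GGCTC. In 15 of the 32 the transcript model went on past the loop to an AATAAA, the poly(A) signal. In HIST1H2BD it lay 12 bases after the loop and in HIST2H2AA3 and HIST2H2AA4 13 bases after it. Those 15 members had a median level of 2.34 FPKM (mean over the 6 libraries), against 1.08 FPKM for the 17 with a loop and no later AATAAA. HIST2H4B fell in the first group and HIST2H4A in the second, although their values were equal in all 6 libraries. Transcript models differ in how far they extend, so this is a description of annotated ends, with no test.

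The promoters of 4 members, the highest H2B, H1 and H4 genes and HIST3H2A, which set the line comparison below, are shown as the 200 bases before the gene start from the RefSeq table of GRCh38.p14. Capitals mark CCAAT (or ATTGG, the same box on the other strand), the TATA box letters TATAAA, and ATTTGCAT, the octamer bound by OCT1.
HIST1H2BK (chr6:27146859-27147058, minus strand): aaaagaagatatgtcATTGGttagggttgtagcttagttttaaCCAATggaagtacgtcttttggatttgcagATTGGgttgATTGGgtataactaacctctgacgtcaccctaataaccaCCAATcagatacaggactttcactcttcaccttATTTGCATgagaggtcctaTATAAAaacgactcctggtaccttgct
HIST3H2A (chr1:228457874-228458073, minus strand): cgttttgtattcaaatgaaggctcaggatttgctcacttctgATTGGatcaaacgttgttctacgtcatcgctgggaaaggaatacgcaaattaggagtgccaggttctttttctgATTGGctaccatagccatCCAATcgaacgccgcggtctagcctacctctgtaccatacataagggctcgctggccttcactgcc
HIST1H1C (chr6:26056471-26056670, minus strand): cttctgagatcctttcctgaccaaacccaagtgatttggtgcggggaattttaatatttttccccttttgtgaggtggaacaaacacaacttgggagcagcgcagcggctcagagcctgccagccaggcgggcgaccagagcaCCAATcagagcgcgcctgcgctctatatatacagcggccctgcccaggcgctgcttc
HIST2H4A (chr1:149832457-149832656, plus strand): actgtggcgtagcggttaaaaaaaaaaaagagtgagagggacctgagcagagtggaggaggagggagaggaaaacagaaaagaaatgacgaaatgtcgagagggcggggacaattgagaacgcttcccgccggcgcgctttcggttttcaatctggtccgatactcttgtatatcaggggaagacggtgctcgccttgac

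The HIST1H2BK window held 5 CCAAT boxes, 1 octamer and 1 TATAAA, and the HIST2H4A window held none of the 3. Both strands of the 250 bases before the start were searched in the 60 members with a promoter in the table and in all 27305 promoters there. CCAAT was in 51 of the 60 members (85.0%) against 33.0% of all promoters, and in every H1, H2A, H2B and H3 member but in 3 of 12 H4 members. ATTTGCAT was in 36.7% of members against 1.7% of all promoters, in 12 of 16 H2B and 9 of 14 H2A members and in no H1 or H4 member. TATAAA was in 63.3% of members against 11.1% of all promoters. Windows of H2A and H2B genes that lie head to head share bases, so the same match can count for both members. A match describes letters in the window and not a bound site.

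The members were unequal in level, and 1 gene dominated. HIST1H2BK, an H2B gene, had levels of 34.8 FPKM (malin) and 50.9 FPKM (empty vector) under the H2030 label, 214 and 206 FPKM in H1299, and 66.0 and 58.6 FPKM in A549. It made up 26.8% to 53.1% of the summed FPKM of all 66 members in a library, and with HIST1H1C, HIST1H2BD and HIST1H2AC 41.8% to 74.8%. The next gene, HIST1H1C (H1.2), had 11.7 and 18.9 FPKM with malin and empty vector under the H2030 label, 38.7 FPKM in both H1299 libraries, and 22.4 and 17.6 FPKM in A549. H1299 was highest in both genes, and its 2 libraries did not overlap with the other 4.

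H1 rested on HIST1H1C alone: HIST1H1A, HIST1H1B, HIST1H1D, HIST1H1E and the testis gene HIST1H1T did not exceed 0.87 FPKM in any library. Among H2A genes HIST1H2AC was highest on average (10.1 FPKM), followed by the identical-value pair HIST2H2AA3 and HIST2H2AA4 (6.55 FPKM each) and HIST3H2A (6.33 FPKM). HIST1H2AG, another H2A copy, averaged 3.12 FPKM. Among H2B genes HIST1H2BD averaged 13.8 FPKM, HIST1H2BC 3.88, HIST1H2BJ 3.71 and the pseudogene HIST2H2BC 3.72 FPKM. Most H3 and H4 copies were near the limit of what these libraries could count. In H3, HIST1H3H (2.34 FPKM) and HIST1H3G (1.78 FPKM) led, and HIST1H3B, HIST1H3D and HIST2H3A stayed under 1 FPKM on average. In H4 the identical-value pair HIST2H4A and HIST2H4B (4.94 FPKM each) led, ahead of HIST1H4K (1.76), HIST1H4H (1.59) and HIST1H4J (0.67 FPKM). One fragment was worth an estimated 0.135 to 0.192 FPKM for an H1 gene and 0.301 to 0.417 FPKM for an H4 gene, so a value under 1 FPKM rests on a few fragments.

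**Figure D1:**
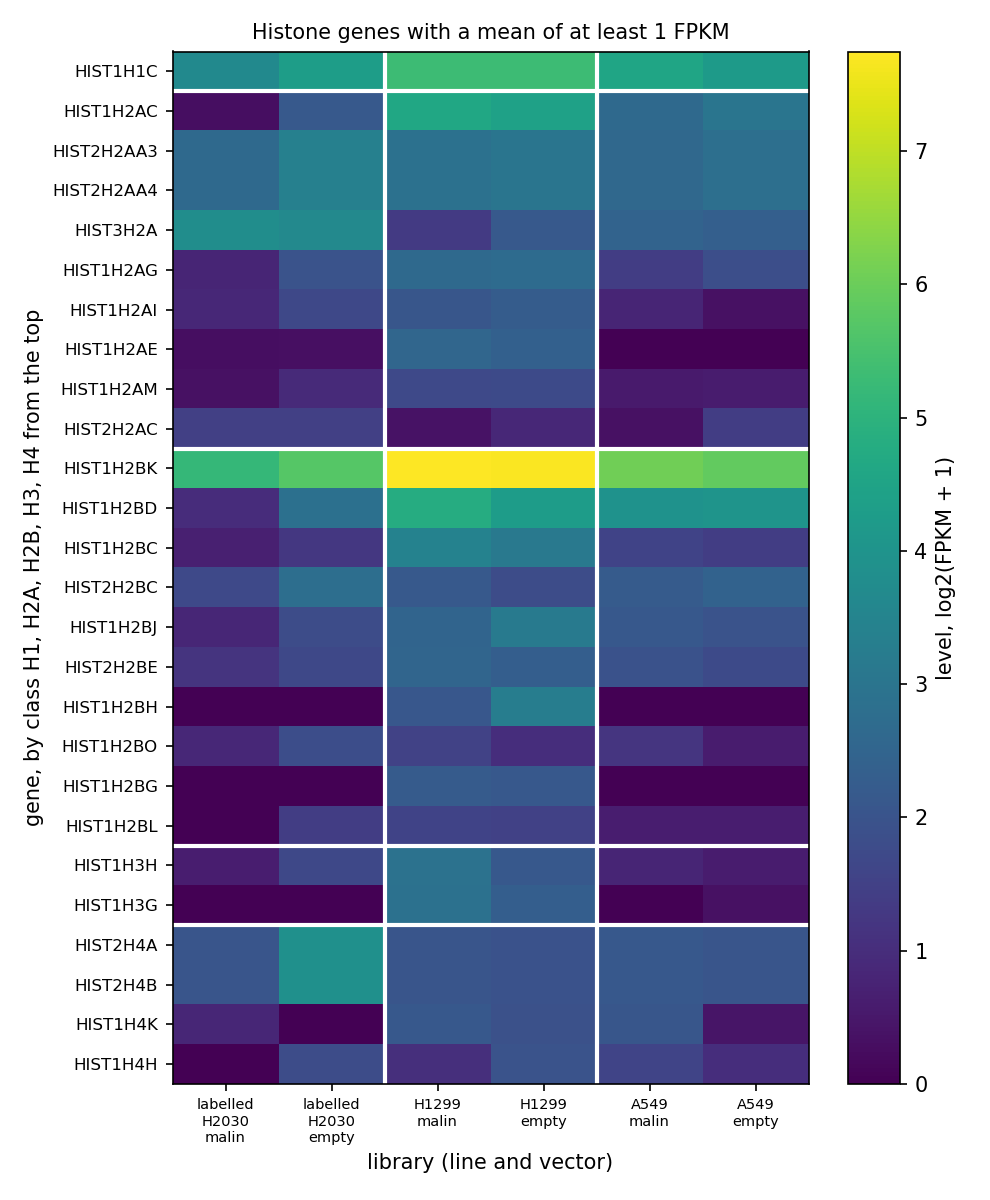
Level of the 26 histone genes with a mean of at least 1 FPKM, as log2(FPKM + 1) by colour, with genes in rows (by class, highest mean first) and the 6 libraries in columns, malin left of empty vector in each line. HIST1H2BK is brightest in every library, HIST1 genes such as HIST1H2AE, HIST1H2BG and HIST1H2BH show colour above the floor mainly in the H1299 columns, and HIST2H4A is brightest in the empty-vector library labelled H2030.

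Members share long near-identical stretches. HIST2H2AA3 and HIST2H2AA4, HIST2H3A and HIST2H3C, and HIST2H4A and HIST2H4B each had equal values in all 6 libraries, and whether each copy carries the whole or a part of the pair's fragments is not known. Classes were therefore summed over their copies, which counts both values of such a pair. HIST1H4I lies within the annotated span of HIST1H2BK on the other strand, and the sources used here do not say if strand was used in counting. Exact zeros are reported as listed values.

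The first question was whether histone messages differed between malin and empty-vector cells. In the libraries labelled H2030 they were lower with malin in all 5 classes, while in A549 and H1299 class sums went either way. All 66 members summed to 98.2 FPKM with malin against 190 FPKM with the empty vector in the libraries labelled H2030. The sums were 406 against 387 FPKM in H1299 and 165 against 149 FPKM in A549. On estimated fragments the malin to empty-vector ratio was 0.523 (95% exact binomial interval 0.46 to 0.593) for the libraries labelled H2030, 1.06 (0.983 to 1.13) for H1299 and 1.12 (1.005 to 1.25) for A549. These intervals cover counting error between 2 libraries only. The sum was lower with malin in the libraries labelled H2030 and within counting error in H1299. In A549 it was slightly higher, but the interval barely excluded 1, and without HIST1H2BK the interval included 1 (0.983 to 1.27).

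By class, the linker histone H1 summed to 12.1 FPKM with malin against 20.1 FPKM with the empty vector in the libraries labelled H2030, 39.3 against 39.8 FPKM in H1299, and 23.1 against 18.4 FPKM in A549. H2A summed to 28.3 against 43.5 FPKM, 58.0 against 59.3 FPKM, and 25.2 against 29.2 FPKM in the same order of lines. H2A was the class with the lower sum under malin in every line, but 2 of the 3 differences were within counting error. The ratio was 0.654 (interval 0.509 to 0.838) in the libraries labelled H2030, 0.978 (0.817 to 1.17) in H1299 and 0.86 (0.66 to 1.12) in A549. H2B summed to 44.3 against 77.2 FPKM in the libraries labelled H2030, 278 against 264 FPKM in H1299, and 96.9 against 87.2 FPKM in A549. H3 summed to 4.44 against 12.0 FPKM in the libraries labelled H2030, 17.0 against 10.3 FPKM in H1299, and 4.72 against 4.88 FPKM in A549. The H1299 and H2030 pairs thus moved apart in H3, by ratios of 1.65 (1.099 to 2.49) and 0.358 (0.191 to 0.647). H4 summed to 9.05 against 37.5 FPKM in the libraries labelled H2030, 13.1 against 13.8 FPKM in H1299, and 14.97 against 9.1 FPKM in A549. Its ratio was 0.245 (0.153 to 0.379) in the libraries labelled H2030, 0.934 (0.589 to 1.48) in H1299 and 1.65 (1.015 to 2.74) in A549.

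**Figure D2:**
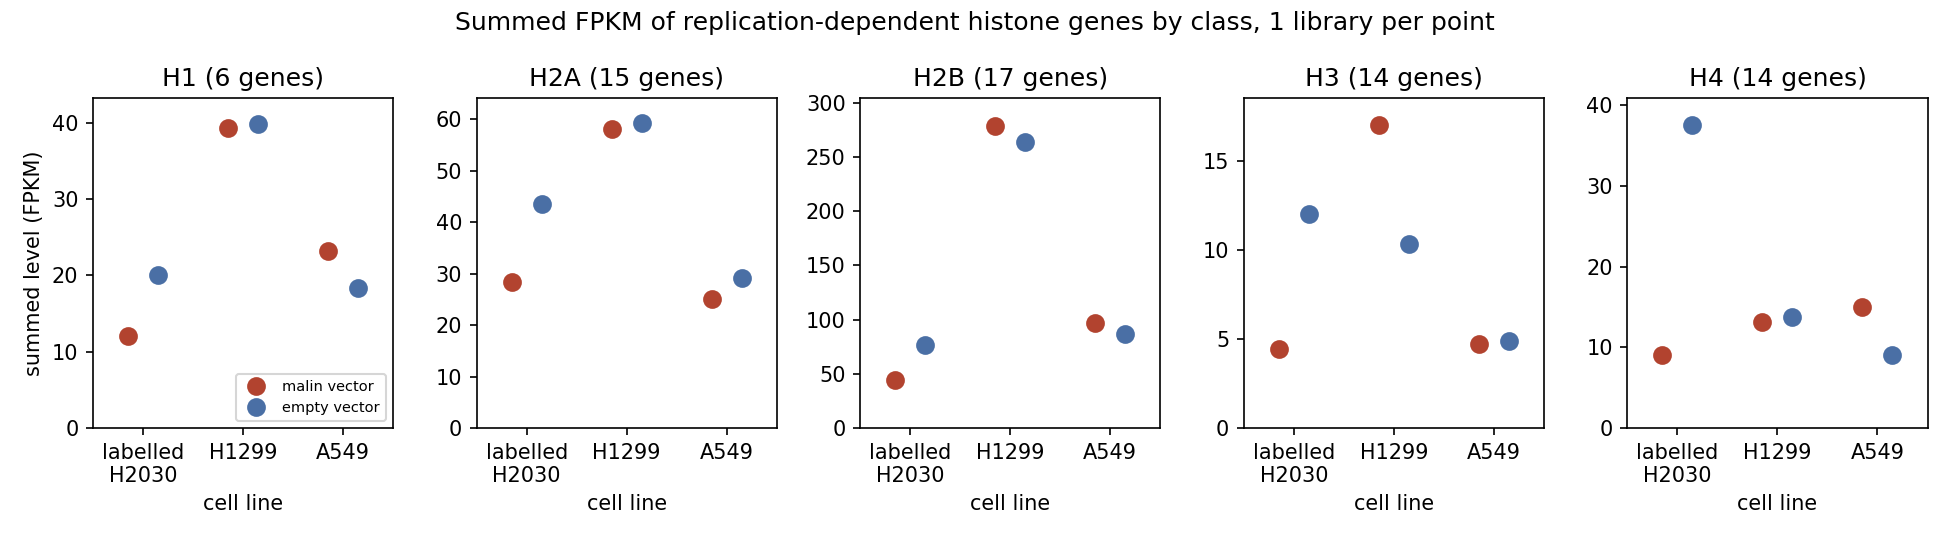
Summed FPKM of each histone class (vertical axis, from 0) in the 3 lines (horizontal axis), 1 point per library, malin (red) left of empty vector (blue), with no error bars because each point is 1 library. In the libraries labelled H2030 the malin point is below the empty-vector point in all 5 panels, and the lowest ratio is that of H4, 9.05 against 37.5 FPKM.

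Over the 3 lines no class differed beyond the spread between lines. The mean log2(sum + 1) difference, malin minus empty vector, was -0.28 ± 0.29 for H2A (SD, n = 3 lines; lower in 3 of 3; exact paired permutation p = 0.25, two-sided). The smallest p that 3 pairs allow is 0.25. It was -0.13 ± 0.51 for H1, -0.19 ± 0.52 for H2B, -0.21 ± 0.98 for H3 and -0.45 ± 1.34 for H4, with exact paired permutation p of 0.75, 1.0, 0.75 and 0.75. Without the libraries labelled H2030 the means of H1, H2B, H3 and H4 were above 0, at 0.15, 0.11, 0.32 and 0.30, and that of H2A stayed below 0, at -0.12. In limma, with line as a block, 0 of 12184 genes (0%) passed an adjusted p of 0.05 for malin against empty vector, and none of the 25 members tested did. At an unadjusted p under 0.05, limma listed 213 genes (1.75%) and 2 members, HIST1H2AG (-0.57 on the log2 scale) and HIST1H4K (0.89), both with an adjusted p of 0.927. Each p measures the spread between these libraries only, since no label says that cultures were independent.

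Within the libraries labelled H2030, 25 of 66 members (37.9%) fell short of the empty vector by 1.5-fold or more with malin and 4 exceeded it, on the FPKM + 1 scale and with no test. Over all 19903 genes, 6.46% were lower and 3.53% higher by that fold, and over the 12184 genes that passed the filter 7.33% and 4.28%. At 2-fold, 13 members were lower and 0 higher, against 1.51% and 0.472% of all genes. The median member difference was -0.39 on the log2 scale, beside -0.0132 over all genes. In H1299, 4 members were higher and 5 lower by 1.5-fold, against 0.578% and 0.347% of all genes (0.328% and 0.148% of those past the filter). At 2-fold, 0 were higher and 1 lower in H1299, against 0.126% and 0.0854% of all genes. In A549, 7 were higher and 2 lower by 1.5-fold, against 0.633% and 0.819% of all genes (0.542% and 0.583% of those past the filter). At 2-fold, 2 were higher and 2 lower in A549, against 0.0955% and 0.116% of all genes. The median member difference was 0 in both of these lines. Many members are low, and a low gene can pass 1.5-fold by a few fragments.

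**Figure D3:**
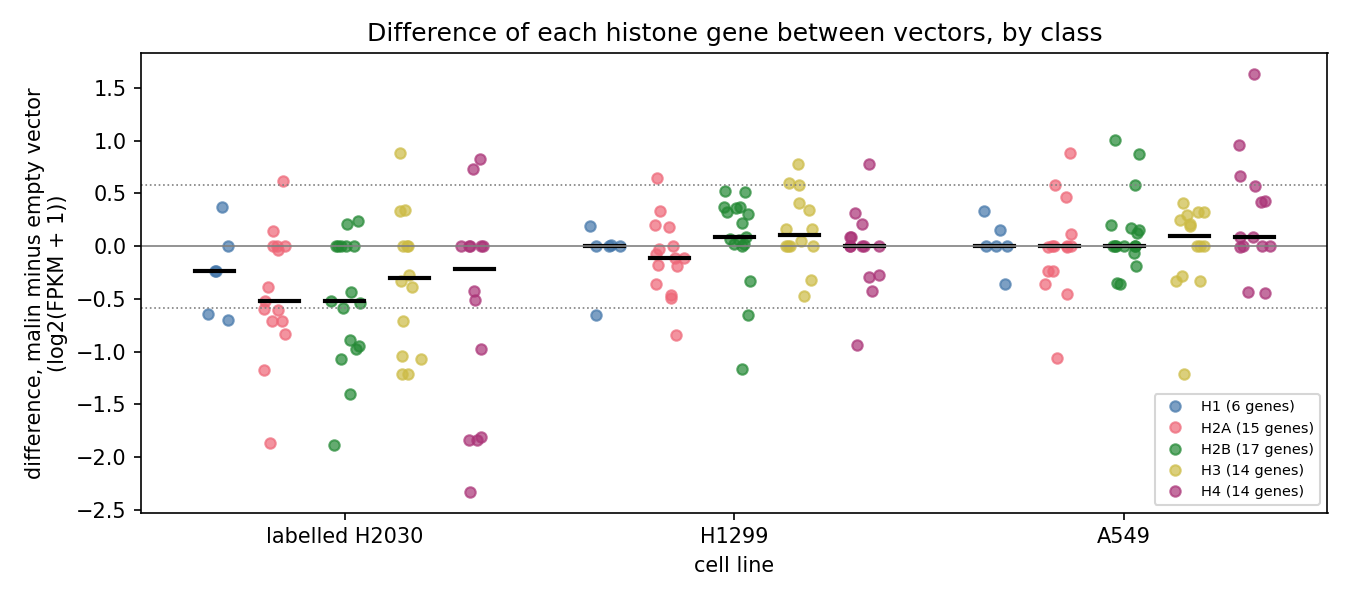
Difference of each of the 66 members between vectors, malin minus empty vector on the log2(FPKM + 1) scale (vertical axis), by line (horizontal axis) and class (colour); each point is 1 gene, black bars are class medians, and dotted lines mark 1.5-fold. Class medians lie below 0 in all 5 classes for the libraries labelled H2030, where 25 members pass the lower dotted line, against 5 in H1299 and 2 in A549.

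The members that differed most in the libraries labelled H2030 came from 3 classes. The H4 gene HIST1H4J was listed at 0 with malin against 4.02 FPKM with the empty vector, and at 0 in the other 4 libraries. HIST2H4A and HIST2H4B, also H4, stood at 3.16 FPKM each with malin against 13.9 FPKM each with the empty vector, while the other 4 libraries lay between 2.90 and 3.42 FPKM. The empty-vector library labelled H2030 was thus the one that stood out in both, and the pair's sum of 27.7 FPKM was most of that library's H4 sum. The H2B gene HIST1H2BD stood at 0.98 against 6.32 FPKM, and the H2A gene HIST1H2AC at 0.22 against 3.44 FPKM. In these 2 genes the malin library labelled H2030 was the lowest of the 6.

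HIST1H2BK took part with a smaller difference, 34.8 FPKM with malin against 50.9 FPKM with the empty vector (log2 difference -0.54). Without it the other 65 members summed to 63.4 against 139 FPKM in the libraries labelled H2030, 192 against 181 FPKM in H1299 and 98.8 against 90.2 FPKM in A549. By cluster, the malin to empty-vector ratio in the libraries labelled H2030 was 0.501 (interval 0.421 to 0.595) for HIST1 and 0.431 (0.343 to 0.538) for HIST2. For the 3 HIST3 genes it was 1.13 (0.753 to 1.71), an interval that includes 1. HIST3H2A stood at 12.9 against 11.6 FPKM and its partner HIST3H2BB at 1.69 against 1.33 FPKM. In all, 11 members were higher with malin in that pair of libraries and 39 lower. The 4 that passed 1.5-fold upward were HIST2H3D, HIST4H4, HIST1H4K and HIST1H2AL, none above 1.27 FPKM.

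In H1299 the H3 difference came mostly from HIST1H3H, at 6.61 FPKM with malin against 3.43 FPKM with the empty vector, and HIST1H3G, at 6.45 against 3.99 FPKM. HIST1H2BH, an H2B gene listed at 0 in both other lines, went the other way, at 3.32 against 8.66 FPKM. It was the one member past 2-fold in H1299. HIST1H2BJ stood at 4.67 against 7.93 FPKM, HIST1H4H at 1.06 against 2.95 FPKM, HIST3H2A at 1.5 against 3.48 FPKM and HIST1H1B at 0.15 against 0.81 FPKM. HIST1H3J, HIST1H2AK and HIST1H4I were higher with malin but did not exceed 1.37 FPKM.

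In A549 the H4 gene with the largest difference was HIST1H4K, at 3.22 FPKM with malin against 0.36 FPKM with the empty vector, an estimated 9.7 against 1.1 fragments. HIST1H4H was at 2.0 against 1.02 FPKM, and HIST1H4C at 0.95 FPKM against a listed 0. HIST2H2BF, an H2B gene of HIST2, was at 1.66 against 0.32 FPKM. The H2A gene HIST2H2AC was lower with malin, at 0.28 against 1.67 FPKM, and the H3 gene HIST2H3D was listed at 0 against 1.32 FPKM. HIST1H2AJ and HIST1H2BE, at 0.84 and 0.83 FPKM with malin, were both listed at 0 with the empty vector. No member passed 1.5-fold in the same direction in all 3 lines.

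The second comparison was between lines, each with 2 libraries that differ in vector. The summed FPKM of all 66 members was higher in H1299 than in the other lines, and the excess was in HIST1. HIST1 summed to 57.3 FPKM (malin) and 113 FPKM (empty vector) in the libraries labelled H2030, 375 and 354 FPKM in H1299, and 134 and 116 FPKM in A549. HIST2 summed to 24.8 and 63.5 FPKM, 28.5 and 28.1 FPKM, and 26.0 and 29.1 FPKM in the same libraries. HIST3 summed to 14.8 and 12.9 FPKM, 1.5 and 3.74 FPKM, and 4.74 and 4.08 FPKM. The H1299 libraries were highest in HIST1 and lowest in HIST3, and the libraries labelled H2030 were lowest in HIST1 and highest in HIST3, with no overlap in any of the 4 cases. Both lowest cases had small margins to the A549 empty-vector library, 113 against 116 FPKM in HIST1 and 3.74 against 4.08 FPKM in HIST3. Without HIST1H2BK, the HIST1 sums of the libraries labelled H2030 (22.5 and 62.5 FPKM) overlapped with those of A549 (67.5 and 57.0 FPKM).

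**Figure D4:**
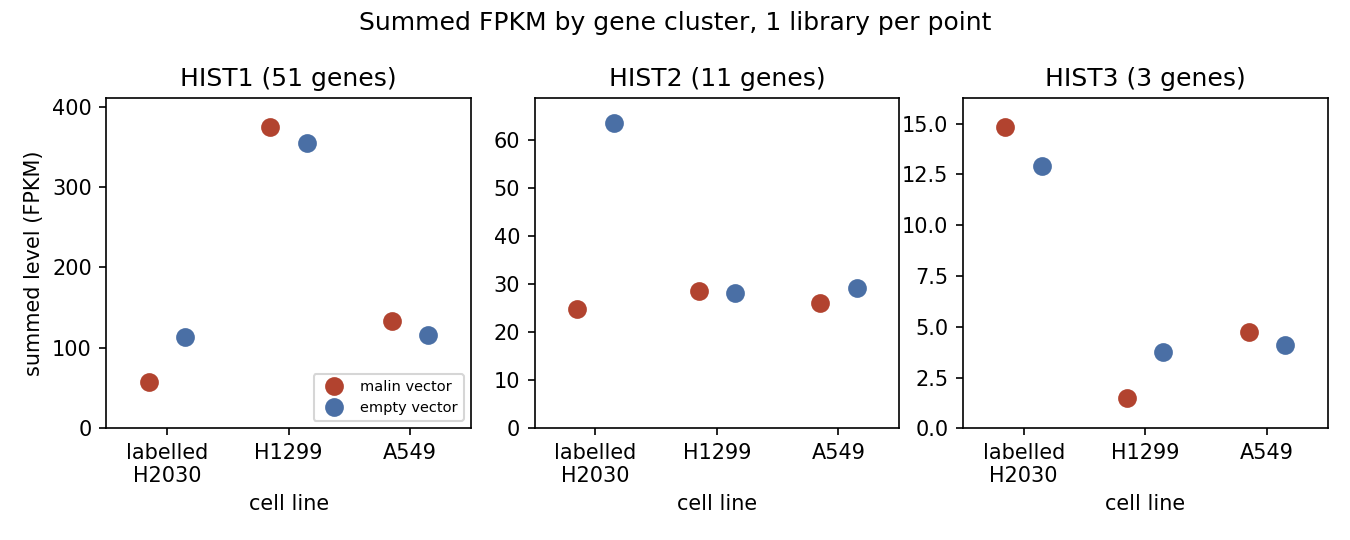
Summed FPKM of the HIST1, HIST2 and HIST3 clusters (vertical axes, each from 0) in the 3 lines (horizontal axis), 1 point per library, malin (red) left of empty vector (blue). H1299 stands highest in HIST1 (375 and 354 FPKM), 5 of the 6 libraries lie between 24.8 and 29.1 FPKM in HIST2, and the libraries labelled H2030 stand highest in HIST3 (14.8 and 12.9 FPKM).

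The ratio of the HIST1 to the HIST2 sum was 2.31 and 1.79 (malin, empty vector) in the libraries labelled H2030, 13.2 and 12.6 in H1299, and 5.13 and 3.97 in A549. The ratio differed more between lines than between vectors of 1 line. Leaving out HIST1H2BK, it was 0.91 and 0.98 in the libraries labelled H2030, 5.66 and 5.29 in H1299, and 2.59 and 1.96 in A549, so the order of the lines was the same. The H1299 mean of the HIST1 sum was 365 ± 14.7 FPKM (SD, n = 2), against 105 FPKM over the other 4 libraries (125 ± 12.6 FPKM in A549 alone), a log2 difference of 1.85 (exact permutation p = 0.133, two-sided, the smallest that 2 against 4 libraries give). For HIST3, the libraries labelled H2030 averaged 13.9 ± 1.36 FPKM (SD, n = 2), against 3.52 FPKM over the other 4, a log2 difference of 1.78 (exact permutation p = 0.133). By class, the H1299 excess over the other 4 libraries was 1.87 on the log2 scale for H2B, 1.09 for H1 and 0.90 for H2A, all 3 without overlap (exact permutation p = 0.133 each). The H1 and H2A values depended on their highest gene: without HIST1H1C the H1 excess was 0.035 (exact permutation p = 0.933), and without HIST1H2AC the H2A excess was 0.44 (exact permutation p = 0.4). Without HIST1H2BK the H2B excess was 1.45 (exact permutation p = 0.133). Set against A549 alone, H1299 averaged 271 ± 10.2 against 92.0 ± 6.83 FPKM for H2B, 39.5 ± 0.36 against 20.8 ± 3.34 FPKM for H1 and 58.6 ± 0.95 against 27.2 ± 2.88 FPKM for H2A (SD, n = 2 each). For H3 and H4 the H1299 libraries overlapped with the others (log2 differences 1.03 and -0.13, exact permutation p = 0.267 and 1.0).

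Over all 66 members, both H1299 libraries lay above both A549 libraries in 26 and below them in 14, against 38.9% and 31.7% of all genes. Of the 51 HIST1 members 23 were above and 7 below, and of the 11 HIST2 members 3 were above and 6 below. Both libraries labelled H2030 lay above both H1299 libraries in 9 members and below in 24 (46.5% and 23.9% of all genes), and 23 of the 24 were in HIST1. Against A549 the libraries labelled H2030 were above in 10 members and below in 10 (48.8% and 22.3% of all genes). The FPKM of the median gene was itself 0.09 higher on the log2 scale in H1299 than in A549, and 0.22 and 0.29 higher in the libraries labelled H2030 than in H1299 and A549. The lower HIST1 levels of the libraries labelled H2030 than of H1299 run against that shift. Against A549, 5 of the 51 HIST1 members were above and 9 below.

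With limma on the 25 members tested, 13 were higher in H1299 than in A549 and 0 lower at an adjusted p under 0.05 (34.5% and 27.2% of the 12184 genes tested), all 13 in HIST1. HIST1H2AE, HIST1H2AM, HIST1H2BG, HIST1H2BH, HIST1H3G and HIST1H3H passed the filter only through H1299, so this count is a description. Fitted without the libraries labelled H2030, 18 were higher and 1 lower, and without the A549 empty-vector library 8 were higher. HIST1H2AE was at 4.94 and 4.18 FPKM (malin, empty vector) in H1299 and listed at 0 in A549. HIST1H2BG, its divergent H2B partner, was at 3.70 and 3.43 FPKM in H1299 and listed at 0 in the other 4 libraries. HIST1H2BH and HIST1H3G were likewise near the floor outside H1299, with no value above 0.26 FPKM there. HIST1H3H, an H3 gene, stood at 6.61 and 3.43 FPKM in H1299 against 0.75 and 0.51 FPKM in A549 (log2 difference 1.84 ± 0.41 SE). HIST1H2BK was 1.74 ± 0.18 (SE) higher on the log2 scale (limma adjusted p 0.000502), higher in 2 of 2 H1299 libraries. The weakest of the 13, HIST1H2BJ, had a limma adjusted p of 0.0499.

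Between the libraries labelled H2030 and H1299, limma called 2 members higher and 16 lower (40.9% and 23.8% of genes tested). The 16 comprised 15 HIST1 members and HIST2H2BE. They include HIST1H2AE, HIST1H2AM, HIST1H2BG, HIST1H2BH, HIST1H3G and HIST1H3H, which passed the filter only through H1299, so this count too is a description. HIST1H2AC had 0.22 and 3.44 FPKM under the H2030 label against 23.6 and 20.7 FPKM in H1299 (log2 difference -3.31 ± 0.45 SE, limma adjusted p 0.00127). HIST1H2BC was at 0.59 and 1.38 FPKM against 9.88 and 7.81 FPKM, and HIST1H2BD at 0.98 and 6.32 FPKM against 27.0 and 18.6 FPKM. The 2 higher members were HIST3H2A, at 12.9 and 11.6 FPKM against 1.5 and 3.48 FPKM (1.98 ± 0.26 SE, limma adjusted p 0.00112), and HIST2H2AC, at 1.77 and 1.76 FPKM against 0.29 and 0.81 FPKM. HIST2H2AC passed the filter only through the libraries labelled H2030 (mean 1.10 FPKM over all libraries), so its call is a description. Against A549, limma called HIST3H2A higher in the libraries labelled H2030 (1.32 ± 0.26 SE, adjusted p 0.0055) and HIST1H2BD, HIST1H2AC, HIST1H2BJ and HIST1H2BK lower, so 1 and 4 members (45% and 22.1% of genes tested). With median-of-ratios scaling 8 were lower against A549. Lower calls against A549 numbered 0 without the A549 malin library and 10 without the empty-vector library labelled H2030, and higher calls 9 without the malin library labelled H2030. These contrasts share libraries and are not independent of each other.

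H2A and H2B genes often lie head to head and share 1 promoter region. The annotation gave 11 such pairs among the members, with 194 to 288 bases between starts. Some partners differed widely in level and others were close. HIST1H2BK and HIST1H2AH start 248 bases apart, yet HIST1H2BK averaged 105 FPKM and HIST1H2AH 0.49 FPKM. HIST3H2A averaged 6.33 FPKM and HIST3H2BB 0.55 FPKM, and HIST1H2AC averaged 10.1 FPKM and HIST1H2BC 3.88 FPKM. HIST1H2AG and HIST1H2BJ were close, at 3.12 and 3.71 FPKM, as were HIST1H2AM and HIST1H2BO, at 1.14 and 1.34 FPKM. The H2B gene was the higher partner in 6 of the 11 pairs. Partners could still share the pattern over lines: HIST1H2AC and HIST1H2BC were both highest in H1299 and lowest in the malin library labelled H2030, and HIST1H2AE and HIST1H2BG were both near or at 0 outside H1299. Both HIST3 partners were highest in the libraries labelled H2030. Other partners differed in listed pattern, but the H2A genes named next rest on a few fragments. HIST2H2BE was highest in H1299, at 4.82 and 3.99 FPKM (malin, empty vector). Its partner HIST2H2AC was not, with 0.29 and 0.81 FPKM there (malin, empty vector), an estimated 1.1 and 3.4 fragments. Under the H2030 label HIST2H2AC had 1.77 and 1.76 FPKM, an estimated 6.9 and 5.8 fragments. The A549 empty-vector library came close to that, at 1.67 FPKM (6.8 fragments), while A549 with malin had 0.28 FPKM (1.2 fragments). HIST1H2BK was highest in H1299, whereas HIST1H2AH was at 0.26 and 0 FPKM there, against 0.74 and 0.75 FPKM in A549. For HIST1H2AH this is an estimated 0.9 and 0 fragments in H1299, against 2.8 in either A549 library.

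Genes that act on histone messages were set beside the members. The tables held 20 listed genes for histone gene transcription and 3' end processing, and limma called none of them between vectors. In the libraries labelled H2030, CASP8AP2 stood at 16.1 FPKM with malin against 26.1 FPKM with the empty vector, and CDC25A, a cell cycle phosphatase, at 37.6 against 56.8 FPKM. SLBP went the other way, at 106 against 80.4 FPKM, as did LSM11, a subunit of the U7 particle that cuts histone messages, at 8.36 against 5.98 FPKM. NPAT was at 8.26 against 8.76 FPKM. Over the 20 genes in those libraries, 7 were higher and 13 lower with malin, and 1 passed 1.5-fold, downward.

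DNA replication genes stood on both sides of the empty vector. The summed level of 18 of them in the libraries labelled H2030 was 1837 FPKM with malin against 2056 FPKM with the empty vector, and 12 were lower with malin. MKI67, a proliferation marker, was at 33.5 against 15.7 FPKM and RRM2 at 113 against 65.7 FPKM. CDT1 was at 36.6 against 62.9 FPKM, and PCNA at 292 against 393 FPKM. In A549 all 18 were lower with malin, with a median of -0.10 on the log2 scale, and in H1299 14 were, with a median of -0.03. limma called none of the 18 between vectors. The part of these genes in the histone differences was not tested. Less histone message per cell and fewer cells in S phase cannot be told apart in bulk RNA.

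Replication-independent histone genes, most of which give polyadenylated messages throughout the cell cycle, also went either way. Their sum was 1804 FPKM with malin against 1863 FPKM with the empty vector in the libraries labelled H2030, 1548 against 1554 FPKM in H1299, and 1144 against 1141 FPKM in A549. Of the 12 in the tables, 7 were higher and 5 lower with malin in the libraries labelled H2030. H2AFZ (H2A.Z), the highest, was at 806 against 736 FPKM there. H1F0, the linker histone of resting cells, was at 149 against 244 FPKM and H2AFY2 (macroH2A2) at 36.2 against 56.9 FPKM, while H1FX was at 114 against 72.5 FPKM and CENPA, the centromeric H3, at 19.2 against 10.4 FPKM. H2AFJ, at 13.5 to 17.2 FPKM in A549 and H1299, had 0.23 and 0.07 FPKM under the H2030 label. Of 12 histone chaperone genes, 8 were higher and 4 lower with malin in the libraries labelled H2030, and their sum was 1017 against 984 FPKM. The largest differences there were in ATRX, at 13.85 against 10.04 FPKM, and ASF1A, at 14.3 against 18.1 FPKM. limma called no gene of either list between vectors.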

How the data were processed

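RNA sequencing libraries of 3 cell lines, each with a malin and an empty vector, were analysed from gene-level tables. The values are FPKM as the authors deposited them, so named in the file headers. STAR, Cufflinks, cutadapt and FastQC on hg38, with no versions, appear in the submitters' processing notes. FPKM is relative to the library total, and the sources used here do not say how fragments of near-identical copies were assigned.

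The members and gene lists were chosen with earlier results of these data known. Identities, gene types and positions came from RefSeq (GRCh38.p14), which matched all 66 members, and transcripts from GENCODE release 29. Levels were analysed as log2(FPKM + 1). limma 3.58.1 in R 4.3.3 was run on 12184 protein-coding genes with a mean of at least 1 FPKM, with an intensity trend, line and vector as terms and Benjamini-Hochberg adjustment at 0.05, and was tested on simulated data. Pairs followed the cell line. Class sums were tested by exact permutation over libraries. Adding 1 to FPKM makes fold changes of low genes smaller.

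Depth was estimated from single-transcript genes (600 to 2000 bases, less 100) with few fragments. In each library 79.9% to 83.1% of these came within 0.2 of a whole fragment number (40% by chance for a step not taken from the same values), as did 75.2% of low member values. Fragment numbers and 95% intervals rest on that estimate. Both also count each copy of an identical-value pair, so intervals are too narrow if such copies carry the same fragments. For HIST1H2BK they use its coding length.

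Named genes were NHLRC1, the 5 highest members of each class, up to 5 members per direction past 1.5-fold in each line and past the threshold in each line contrast, and up to 5 genes of each other list by mean difference. A few others were named after their values were seen. Other steps used pandas 2.3.3, numpy 2.4.6, scipy 1.17.1 and matplotlib 3.10.9 under Python 3.11.15. Alternatives tried were no filter, a filter at a mean of 5 FPKM, a pseudocount of 0.1 or 5, median-of-ratios scaling, no block, sums without the highest copy, and leaving out libraries or lines. Leaving out the libraries labelled H2030 from the fit of H1299 against A549 was added after the data were seen.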

Additional observations from a re-analysis of the deposited data

Results flagged for a closer look

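In 2 classes the malin difference had opposite signs in different lines. The H3 sum was higher with malin in H1299, by 0.67 on the log2(sum + 1) scale, and lower in the libraries labelled H2030, with a difference of -1.26. The H4 sum was higher with malin in A549, by 0.66, and lower in the libraries labelled H2030, with a difference of -1.94. There is 1 library per line and vector, so the difference between lines was not tested. The H3 sums rest on an estimated 64 and 42 fragments in H1299 (malin, empty vector) and 17 and 40 in the libraries labelled H2030. The H4 sums rest on 47 and 28 fragments in A549 and 27 and 93 in the libraries labelled H2030. Of the 93, HIST2H4A and HIST2H4B make up 34.2 each, which may be the same fragments counted for both copies. The same holds for HIST2H3A and HIST2H3C, which make up 9.6 and 9.7 of the 40 H3 fragments in the empty-vector library labelled H2030.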

How the results depend on the processing

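The malin comparison rests on the libraries labelled H2030. Leaving out a line moved the mean difference over lines between -0.35 and 0.15 for H1, -0.40 and -0.12 for H2A, -0.36 and 0.11 for H2B, -0.65 and 0.32 for H3, and -1.0 and 0.30 for H4; the positive ends are without those libraries. Genes called by limma between vectors were 0 to 1 when a line was left out, the 1 gene being no member. The pairing comes from the cell line; without the block, 0 genes were called and the class means were the same (H2A -0.28, exact permutation p = 0.5).

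Sums without the copy of highest mean changed some values: H1 in A549 to -0.11 and in H1299 to -0.39, and H2B in the libraries labelled H2030 to -1.38. Between lines, the difference of the libraries labelled H2030 from the others became 0.27 for H2A and 0.057 for H3, and that of H1299 became 0.05 for H4, 0.035 for H1 and 0.44 for H2A. When 1 library was left out, the difference of the libraries labelled H2030 ranged from -0.48 to 0.12 for H2A, -0.74 to 0.52 for H3 and -0.43 to 1.51 for H4, and that of H1299 from -0.35 to 0.30 for H4. The cause was not tested.

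Members called higher in H1299 than in A549 were 3 at a mean of at least 5 FPKM and 8 to 18 when 1 library was left out, the 8 without the A549 empty-vector library. Those called lower were 3 with no filter, 1 without the libraries labelled H2030, and 0 to 1 without 1 library. For the libraries labelled H2030 against A549, higher calls were 2 at a pseudocount of 0.1, 3 with no filter and 1 to 9 without 1 library, the 9 without the malin library labelled H2030. Lower calls were 8 with median-of-ratios scaling and 0 to 10 without 1 library, 0 without the A549 malin library and 10 without the empty-vector library labelled H2030. Against H1299, higher calls were 4 with no filter, 1 at a mean of at least 5 FPKM, 1 with median-of-ratios scaling and 1 to 4 without 1 library; lower calls were 4 at a mean of at least 5 FPKM and 12 to 19 without 1 library. Fewer members are tested at the higher filter. Depth limits members under about 1 FPKM, which rest on a few fragments.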
